A study of Homo sapiens with 9 samples.

Results

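The transcripts of the epidermal growth factor receptor (EGFR) family, its ligands and 1 of its inhibitors were followed in parental A549 cells and in the A549 cells that had been transduced with OCT3/4, SOX2 and KLF4 (OSK). The genes were the receptors EGFR, ERBB2 and ERBB3, the ligands AREG, EREG, HBEGF, TGFA, BTC and NRG1, and the inhibitor ERRFI1. Each non-control probe whose accession on the array was a RefSeq transcript of one of these 10 genes was taken, which gave 17 of 50599 probes.

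A549 cells are an established human line of lung adenocarcinoma. Parental A549 cells, without the vectors, were at passage number 98, 98 and 99 on the 3 arrays of the group. The OSK-A549-SN and OSK-A549-Colony cells came from A549 cultures given retroviral vectors for the 3 factors, and every RNA of both groups was from a later passage than the parental ones. Colony cells grew in dome-shaped colonies that resisted trypsin, whereas SN cells, spindle-shaped and growing at the edge of the colonies, were released first by trypsin and taken with the supernatant. All groups were grown in medium with serum, and the 3 RNAs of a group came from independent transduction experiments. An array of cells with a control vector was not analysed here, so transduction and the passage number cannot be told apart in any comparison with the parental cells. The SN cells were separated from the same kind of culture as the Colony cells by detachment alone, and neither group was sorted by a surface marker.

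EGFR and its relatives are receptor tyrosine kinases of the cell surface, and a bound ligand makes them pair and phosphorylate each other. EGFR binds AREG, EREG, HBEGF, TGFA and BTC, while ERBB3 binds the neuregulins, of which NRG1 is the best studied. ERBB2 has no known ligand and serves as the favoured partner, and ERBB3, with a kinase of very low activity, couples its partner to PI3K. The ligands are made as membrane proteins and are released by ADAM proteases. ERRFI1 binds the active EGFR kinase and blocks it, and signals reach the nucleus through RAS and ERK, which raise transcripts such as EGR1 and FOSL1. In lung adenocarcinoma EGFR is a well-known target of kinase inhibitors.

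The promoters of the member ligands on chromosome 4, AREG, EREG and BTC, are given first. They were picked with their values known: EREG and BTC are the 2 ligands called below, and AREG shifted in the same direction. Ligands outside the members, such as EPGN, were not included. The 250 bases before the annotated start are printed 5′ to 3′ in the direction of the gene, from RefSeq on the GRCh38.p14 build, with the AREG window at chr4:74444886-74445135 on the plus strand, the EREG window at chr4:74364895-74365144 on the plus strand and the BTC window at chr4:74794524-74794773 on the minus strand. Capitals mark the cAMP response element TGACGTCA and the TATA box TATAAA.
AREG: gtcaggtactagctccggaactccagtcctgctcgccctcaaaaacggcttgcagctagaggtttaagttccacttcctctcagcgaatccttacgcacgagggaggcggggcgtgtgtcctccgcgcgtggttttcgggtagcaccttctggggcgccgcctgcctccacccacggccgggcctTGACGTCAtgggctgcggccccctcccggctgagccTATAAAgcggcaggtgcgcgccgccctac
EREG: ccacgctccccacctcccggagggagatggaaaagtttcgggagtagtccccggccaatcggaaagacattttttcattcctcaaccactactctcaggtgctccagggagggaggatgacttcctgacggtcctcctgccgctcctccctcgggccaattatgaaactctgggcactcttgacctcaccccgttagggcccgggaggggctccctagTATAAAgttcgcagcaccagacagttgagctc
BTC: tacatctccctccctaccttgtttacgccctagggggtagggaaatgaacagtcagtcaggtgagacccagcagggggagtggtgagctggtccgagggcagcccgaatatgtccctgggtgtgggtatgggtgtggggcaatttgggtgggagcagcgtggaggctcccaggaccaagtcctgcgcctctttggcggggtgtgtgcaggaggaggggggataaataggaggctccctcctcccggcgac
In AREG the response element began 65 bases before the start and the TATA box 29 bases before it, and in EREG a TATA box began 32 bases before the start. On both strands, TGACGTCA was found in 1.65% and TATAAA in 10.7% of the 35116 windows of this length in the table. BTC held neither of these motifs. CACCC, the core of the site bound by KLF factors, was in 6 of the 10 windows that the table gave for 8 of the 10 genes, AREG and EREG (1 match each) and BTC (4 matches) among them, and 54.7% of all windows held it. The octamer ATGCAAAT (1.63% of all windows) and the SOX motif CATTGTT (2.87%) were in none of the 10. ERBB3 and NRG1 were not among the genes matched.

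Every array gave 1 background-subtracted intensity per spot. The values below are log2 intensities after subtraction of the 75th percentile of the array, which lay between 311.0 and 390.9 intensity units, so a value of 0 is the level of that percentile and a difference of 1 is a fold change of 2. Values of different probes cannot be ranked against each other, because probes differ in brightness. A probe counted as detected where at least 50% of its spots were well above background, and 16 of the 17 probes were detected on at least 1 array. The exception was TGFA A_23_P377291, which never rose well above background, and TGFA was read from its other probe. Over 23762 probes the arrays of a group correlated at r = 0.983 to 0.993 for parental A549, 0.994 to 0.997 for OSK-A549-Colony and 0.987 to 0.996 for OSK-A549-SN, and the median SD between arrays was 0.21, 0.09 and 0.15, respectively. Of the 9 arrays, 8 were on 1 slide, and OSK-A549-SN replicate 3 was alone on another.

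In OSK-A549-Colony cells the ligands EREG and BTC rose and the receptor ERBB3 fell, whereas the OSK-A549-SN cells had the lower ERBB3 but none of the ligand changes passed the test. A probe was called where its fold change exceeded 2 and its limma p, adjusted over all tested probes, was below 0.05. Against parental A549, 4 of 16 member probes were called in OSK-A549-Colony cells, in 3 genes (4.03% of all tested probes were called), of which 2 were higher (1.5% of all tested probes) and 2 lower (2.53%). In OSK-A549-SN cells 1 of 16 was called (1.68% of all tested probes), and it was lower (1.01%). Between the Colony and SN cells none of the 16 was called, as was none of the 31748 tested probes (0%). At an unadjusted p under 0.05 there were 6 member probes in this last comparison (20.2% of all tested probes), and the lowest adjusted p of any member was 0.105. Bulk arrays cannot tell fewer cells of a kind from less RNA per cell.

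**Figure D1:**
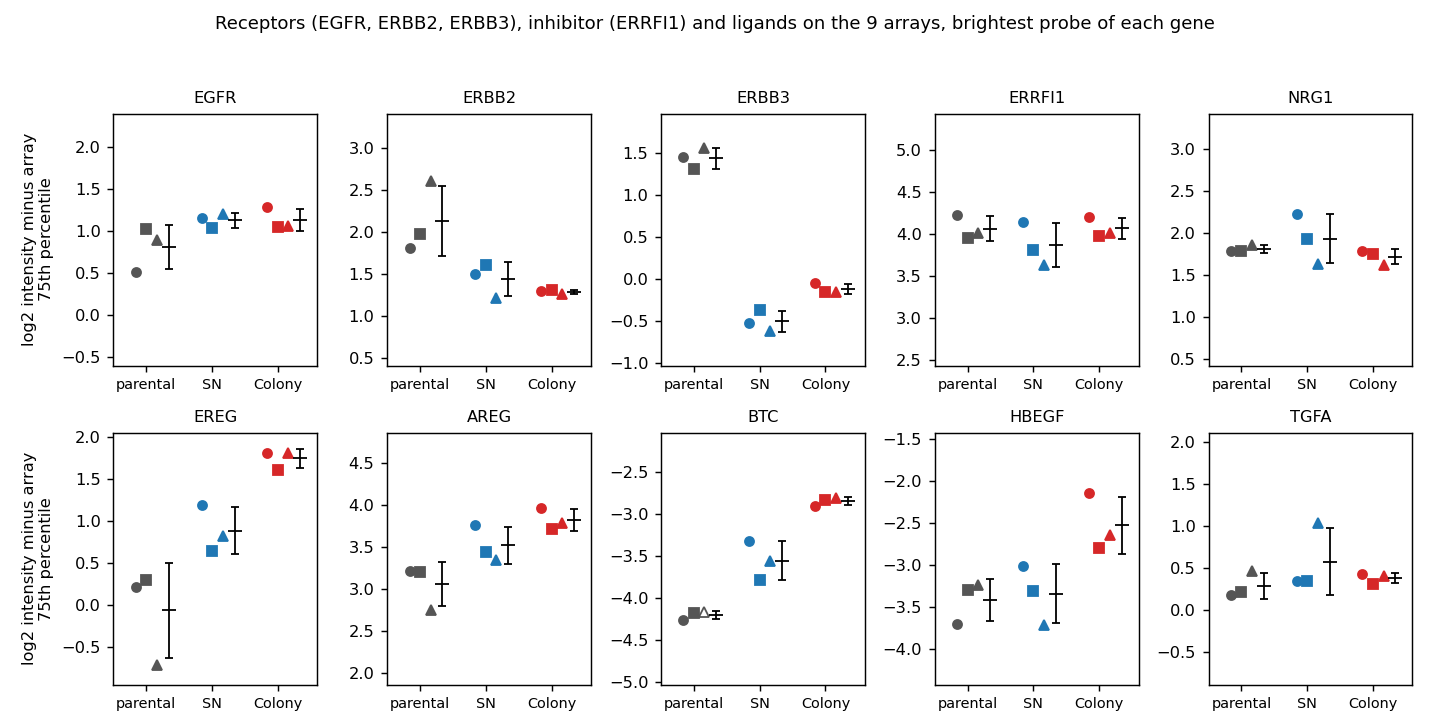
Log2 intensity minus the 75th percentile of the array (vertical axes, each spanning 3 log2 units) for the brightest probe of each of the 10 genes in parental A549, OSK-A549-SN and OSK-A549-Colony (3 arrays each). Circles, squares and triangles are replicates 1, 2 and 3, open symbols were not well above background, and the bars give mean ± SD. ERBB3 is below the parental arrays in both transduced groups, EREG and BTC step up from parental to SN to Colony, and ERRFI1 overlaps between all groups.

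Epiregulin (EREG), a ligand that binds EGFR and ERBB4 and drives their partners, showed the largest rise of any member probe against the parental cells. Its values were 0.22, 0.30 and -0.71 on the parental A549 arrays, 1.81, 1.62 and 1.82 on the OSK-A549-Colony arrays and 1.19, 0.65 and 0.83 on the OSK-A549-SN arrays. The 3 groups did not overlap, with parental lowest and Colony highest, and parental replicate 3 was below the other parental arrays. The means were -0.06 ± 0.56, 1.75 ± 0.11 and 0.89 ± 0.28 (SD, n = 3) in this order. EREG rose 3.50-fold in Colony cells (log2 fold change 1.81, SE 0.29, limma adjusted p = 0.0291). Without parental replicate 3 the log2 fold change was 1.49. In SN cells the log2 difference from parental was 0.95 (95% interval 0.17 to 1.73, adjusted p = 0.168), and Colony minus SN was 0.86 (0.45 to 1.26, adjusted p = 0.105). Neither of these passed.

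Betacellulin (BTC), a ligand of EGFR and ERBB4, was dim on all arrays, with intensities of at most 51.9 units. Its values were -4.25, -4.18 and -4.16 in parental A549, where it was not well above background on replicate 3, -2.90, -2.83 and -2.81 in OSK-A549-Colony and -3.31, -3.79 and -3.56 in OSK-A549-SN. Here too each group stood apart from the others, in the order parental, SN, Colony. BTC rose 2.55-fold in Colony cells (log2 fold change 1.35, SE 0.09, adjusted p = 0.0141). Under normexp background correction, whose offset raises all signals by 50 units, the log2 fold change was 0.39 and the probe was no longer called (adjusted p = 0.0246, fold under 2). The SN difference from parental was 0.65 (0.26 to 1.03, adjusted p = 0.0973), and Colony minus SN was 0.71 (0.37 to 1.05, adjusted p = 0.106).

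Amphiregulin (AREG), a low-affinity EGFR ligand whose gene neighbours EREG, was read by 2 probes. The brighter, A_23_P259071, gave 3.21, 3.20 and 2.75 in parental A549, 3.96, 3.71 and 3.78 in OSK-A549-Colony and 3.76, 3.44 and 3.35 in OSK-A549-SN. Parental arrays were below all arrays of both other groups, which overlapped each other. The Colony difference was 0.77 (SE 0.17, adjusted p = 0.0464), a fold change of 1.70 that did not reach the fold threshold. On the second probe, A_33_P3419190, the values were 1.57, 1.54 and 1.04 in parental, 2.33, 2.06 and 2.16 in Colony and 2.06, 1.80 and 1.90 in SN cells. Its Colony difference was 0.80 (SE 0.18, adjusted p = 0.0502). The probes differed by nearly the same amount on every array, 1.67 ± 0.03 in parental, 1.63 ± 0.02 in Colony and 1.60 ± 0.13 in SN cells (SD, n = 3), and these differences overlapped between the groups. In SN cells AREG was 0.46 (adjusted p = 0.245) and 0.54 (adjusted p = 0.182) above parental.

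Heparin-binding EGF-like growth factor (HBEGF), which binds EGFR and ERBB4, gave -3.70, -3.30 and -3.23 in parental A549, -2.14, -2.79 and -2.64 in OSK-A549-Colony and -3.01, -3.30 and -3.70 in OSK-A549-SN. The Colony arrays lay above all others, and the SN and parental arrays overlapped. Colony minus parental was 0.89 (SE 0.22, adjusted p = 0.0639), Colony minus SN was 0.81 (0.19 to 1.44, adjusted p = 0.179) and SN minus parental was 0.07 (-0.50 to 0.64). None of the 3 passed. Under quantile normalization the Colony difference from parental was 1.10 and was called (adjusted p = 0.0361), and with normexp it was 0.40 (adjusted p = 0.0865).

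Transforming growth factor alpha (TGFA), a high-affinity ligand of EGFR, gave 0.18, 0.21 and 0.46 in parental A549, 0.43, 0.31 and 0.41 in OSK-A549-Colony and 0.35, 0.35 and 1.04 in OSK-A549-SN cells. The groups overlapped, and SN replicate 3 was the highest array. The Colony difference from parental was 0.10 (-0.19 to 0.39, adjusted p = 0.590) and the SN difference 0.29 (-0.28 to 0.86), which was 0.06 without SN replicate 3, the array on the other slide. A rise of 2-fold lay outside both intervals.

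Neuregulin 1 (NRG1), a ligand of ERBB3 and ERBB4, was read by 2 probes, neither of them called in any comparison. On A_33_P3284345 it gave 1.79, 1.78 and 1.86 in parental, 1.78, 1.75 and 1.62 in Colony and 2.22, 1.93 and 1.63 in SN cells. The Colony difference from parental was -0.09 (-0.33 to 0.15) and the SN difference 0.12 (-0.32 to 0.56). On A_23_P315815 the values were 1.47, 1.52 and 1.62 in parental, 1.39, 1.34 and 1.25 in Colony and 1.78, 1.65 and 1.30 in SN cells, where the Colony arrays lay just under the parental ones. The corresponding differences were -0.21 (-0.45 to 0.04) and 0.04 (-0.36 to 0.45).

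**Figure D2:**
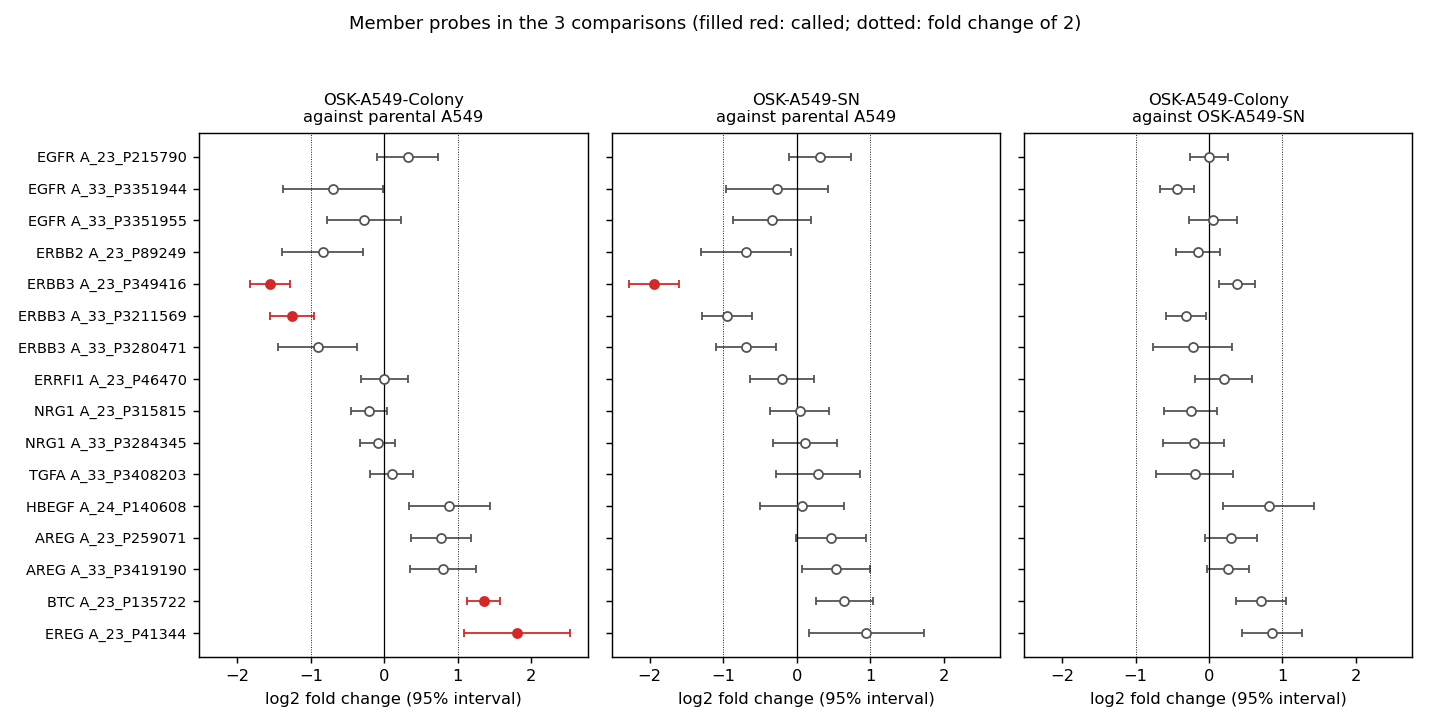
Log2 fold change (horizontal axes) with its 95% interval for the 16 tested member probes (rows) in the 3 comparisons (panels). Filled red points were called, and the dotted lines mark the fold threshold of 2. The called probes are 2 of ERBB3, EREG and BTC in the first panel and 1 of ERBB3 in the second, and the third holds none.

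ERBB3 fell in both transduced groups. Its brightest probe, A_23_P349416, designed to the full-length transcript NM_001982, gave 1.44, 1.30 and 1.55 in parental A549, -0.05, -0.16 and -0.15 in OSK-A549-Colony and -0.53, -0.37 and -0.62 in OSK-A549-SN. All 3 groups were separate, with the SN arrays the lowest. The means were 1.43 ± 0.12, -0.12 ± 0.06 and -0.51 ± 0.13 (SD, n = 3). ERBB3 was 2.94-fold lower in Colony cells (log2 fold change -1.55, SE 0.11, adjusted p = 0.0141) and 3.84-fold lower in SN cells (log2 fold change -1.94, SE 0.14, adjusted p = 0.0204). Colony minus SN was 0.39 (0.14 to 0.63, adjusted p = 0.143).

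A second ERBB3 probe, A_33_P3211569, was designed to NM_001005915, a short transcript that encodes a secreted part of the receptor without the kinase. It gave -0.33, -0.48 and -0.60 in parental, -1.65, -1.67 and -1.87 in Colony and -1.55, -1.39 and -1.31 in SN cells. This probe was lowest in the Colony arrays, unlike the first one. It fell in Colony cells (log2 fold change -1.26, SE 0.12, adjusted p = 0.0162), and in SN cells it was -0.94 from parental, with adjusted p = 0.0421 and a fold change of 1.92, under the threshold. The third probe, A_33_P3280471, also designed to NM_001982, was near background, at most 26.9 units, and was detected on all 3 parental, 2 SN and none of the Colony arrays. It was at least 1.88-fold lower in Colony cells (adjusted p = 0.0564).

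Within an array, the full-length probe of ERBB3 exceeded the short-transcript probe by 1.91 ± 0.21 in parental, 1.61 ± 0.10 in Colony and 0.91 ± 0.19 in SN cells (SD, n = 3). The 3 groups did not overlap in this difference. Every such comparison of groups has an exact two-sided permutation p of at least 0.1 with 3 arrays against 3, which is the smallest this design allows, and 0.167 after adjustment over the 15 differences compared. This test could not pass in this design whatever the values were, so these differences are given as descriptions. Where on the transcripts the probes lie was not analysed here, so a probe named for a short form may also read part of the full-length transcript.

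EGFR itself was not called on any of its 3 probes. On A_23_P215790, designed to the full-length transcript NM_005228, the values were 0.52, 1.03 and 0.89 in parental A549, 1.29, 1.05 and 1.06 in OSK-A549-Colony and 1.16, 1.04 and 1.21 in OSK-A549-SN. All transduced arrays were above all parental arrays, but by little. The differences from parental were 0.32 in both groups, with intervals of -0.10 to 0.74 for Colony (adjusted p = 0.254) and -0.10 to 0.74 for SN cells (adjusted p = 0.351). Without parental replicate 1, the lowest array, both differences were 0.17. A change of 2-fold was outside both intervals.

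The other 2 EGFR probes were designed to the shorter transcripts NM_201283 and NM_201282, which encode secreted forms without the kinase. The NM_201283 probe, A_33_P3351944, gave -0.95, -0.23 and 0.09 in parental, -1.08, -0.98 and -1.13 in Colony and -0.70, -0.52 and -0.67 in SN cells. Parental arrays spread over more than 1 log2 unit, and the Colony arrays were lowest. Its Colony difference from parental was -0.70 (-1.38 to -0.02, adjusted p = 0.155), and Colony minus SN was -0.43 (-0.66 to -0.21, adjusted p = 0.115). On the NM_201282 probe the Colony and SN differences from parental were -0.28 and -0.34, and the groups overlapped.

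The EGFR probes were also compared within the arrays. The full-length probe minus the NM_201283 probe was 1.17 ± 0.34 in parental, 1.76 ± 0.18 in SN and 2.20 ± 0.17 in Colony cells (SD, n = 3), with no overlap between any of the groups. Minus the NM_201282 probe it was 3.37 ± 0.09 in parental, 4.03 ± 0.17 in SN and 3.97 ± 0.04 in Colony cells, where the SN and Colony arrays overlapped and the parental arrays stood apart. The exact permutation p was 0.1 for each separated pair (0.167 adjusted), the smallest that 3 arrays per group can give, so that these values too are descriptions.

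**Figure D3:**
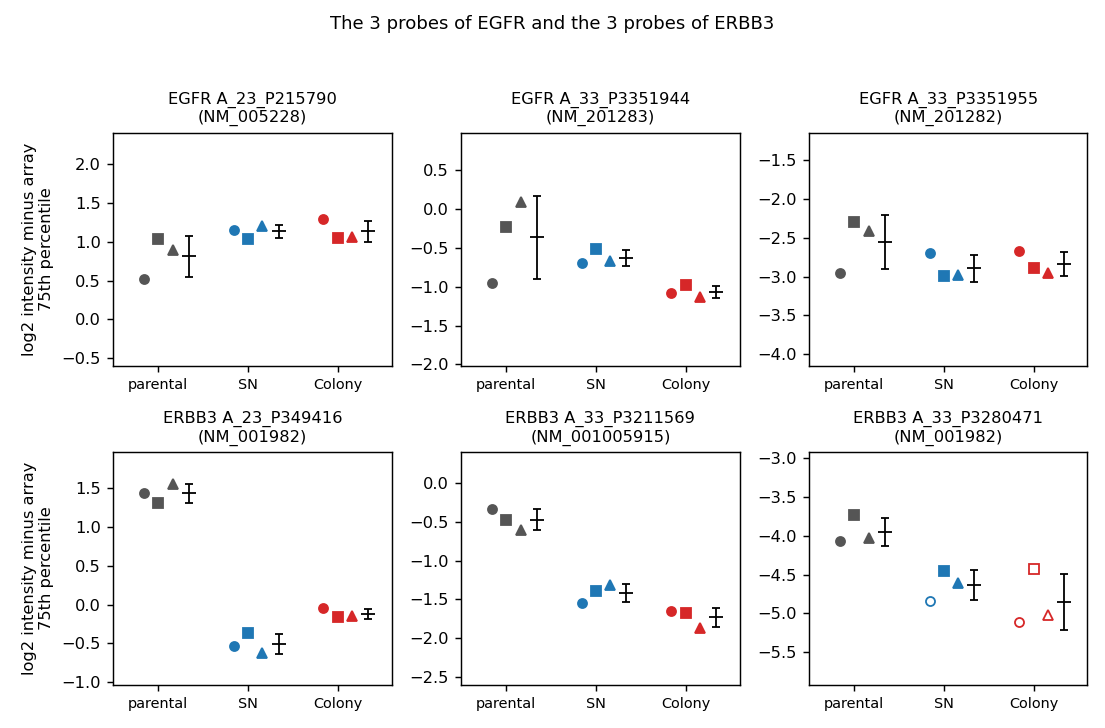
The 3 probes of EGFR (top) and the 3 probes of ERBB3 (bottom), each with the RefSeq transcript it was designed to, as log2 intensity minus the 75th percentile of the array (vertical axes) in the 3 groups. Symbols are replicates, open symbols were not well above background, and the bars give mean ± SD of 3 arrays. The full-length EGFR probe is slightly higher in the transduced cells while the NM_201283 probe is lowest in the Colony cells, and all 3 ERBB3 probes are lower in both transduced groups.

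ERBB2, the partner of ERBB3, was read by 1 probe with 10 spots per array. It gave 1.81, 1.97 and 2.61 in parental A549, 1.30, 1.31 and 1.26 in OSK-A549-Colony and 1.50, 1.61 and 1.22 in OSK-A549-SN. All parental arrays were above all others, and the SD between the parental arrays was 0.42 against 0.03 in Colony cells. The Colony difference from parental was -0.84 (SE 0.22, adjusted p = 0.0702) and the SN difference -0.69 (SE 0.25, adjusted p = 0.187), neither of which passed.

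ERRFI1, the feedback inhibitor of EGFR, overlapped between all groups. It gave 4.23, 3.95 and 4.01 in parental A549, 4.21, 3.97 and 4.01 in OSK-A549-Colony and 4.15, 3.81 and 3.63 in OSK-A549-SN. The Colony difference from parental was 0.002 (-0.31 to 0.32, adjusted p = 0.994) and the SN difference was -0.20 (-0.64 to 0.24, adjusted p = 0.563). The intervals leave out a 2-fold change in either direction.

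Counted without the fold threshold, the groups did not overlap for 12 of the 16 probes in Colony against parental cells, where 43.4% of all tested probes did not overlap, and 6 of the 12 were higher (17.2% of all tested probes) and 6 lower (26.2%). The corresponding counts were 9 of 16 in SN against parental cells (32% of all tested probes) and 7 of 16 in Colony against SN cells (32.1%). Both comparisons with the parental cells used the same parental arrays, and probes of 1 gene are not independent. An F test across the 3 groups passed 6 of the 16 probes (12.3% of all tested probes passed). These were the 3 probes of ERBB3 (adjusted p = 0.00198, 0.00622 and 0.0488), BTC (adjusted p = 0.00640), EREG (adjusted p = 0.0179) and AREG A_33_P3419190 (adjusted p = 0.0409).

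The number of calls depended on single arrays, for the members as for all probes. Without parental A549 replicate 2, OSK-A549-Colony replicate 2 or OSK-A549-Colony replicate 3, 0 of the 4 Colony calls passed, and without Colony replicate 1 the count was 2. In the same 4 fits the calls over all tested probes went from 1245 to 1, 0, 58 and 119, so the loss was not particular to the members. The adjusted p of the full-length ERBB3 probe was then between 0.0531 and 0.0896 where it was lost, and its log2 fold change between -1.53 and -1.62. In SN cells the ERBB3 call was lost without parental replicate 1 or 2 or SN replicate 1 or 2, with a log2 fold change between -1.93 and -2.01, and the calls over all tested probes went from 542 to 52, 2, 0 and 0 in these fits. It was retained without SN replicate 3, the array on the other slide.

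**Figure D4:**
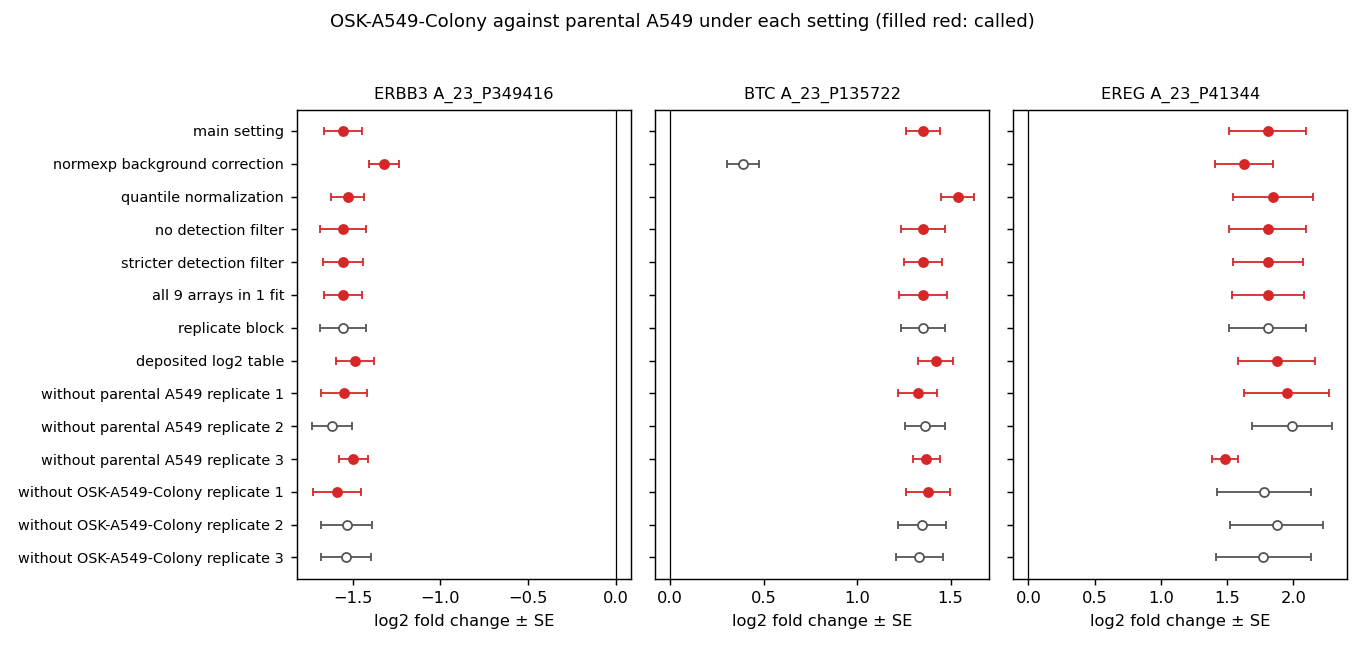
Log2 fold change ± SE (horizontal axes) of ERBB3, BTC and EREG in OSK-A549-Colony against parental A549 under the main setting and each alternative (rows). Filled red points were called. The values stay close to the main setting, except for BTC with the normexp background correction, at 0.39. The open points at a similar value are those whose adjusted p was above 0.05.

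The probes most similar to ERBB3 and EREG over the 9 arrays were found among 23758 probes detected on all arrays, by the root mean square difference after each probe was centred on its own mean. For the full-length ERBB3 probe they were EDN3 (0.21), LINC00261 (0.21) and GPCPD1 (0.21), where ERBB3 itself varied by 0.84 about its mean. EDN3, which encodes the peptide endothelin 3, had group means of -0.35 in parental, -1.67 in Colony and -2.40 in SN cells. For EREG they were NAMPT (0.18), an enzyme of NAD synthesis, STC2 (0.19), a secreted glycoprotein, and ZNF569 (0.20), with a variation of EREG itself of 0.80. NAMPT had group means of -0.14 in parental, 1.32 in Colony and 0.66 in SN cells. These are descriptions over 9 arrays that share the same groups.

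The remaining genes of the pathway were taken from lists written from general knowledge, with 1 probe per gene. Of the other receptors and ligands of the family (ERBB4, EGF, EPGN, NRG2, NRG3 and NRG4), 4 of 6 were tested in Colony against parental cells and none was called (median log2 fold change 0.43, where the median over all named genes was -0.04). Over all named genes, 299 were called higher and 359 lower of 16422 tested in Colony against parental cells, and 120 higher and 181 lower of 16777 in SN against parental cells, and the counts of the lists are to be read beside these. ERBB4, the receptor shared by the neuregulins and several EGFR ligands, was never well above background, nor was the ligand EPGN. EGF, detected on 6 of the 9 arrays, was 0.80 (adjusted p = 0.233) and NRG2 -0.61 (adjusted p = 0.225) from parental in Colony cells.

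Of the proteases that release the ligands and their partners, all 5 of 5 were tested and none was called in any comparison, with a median of -0.02 in Colony and -0.04 in SN against parental cells. ADAM17, the main protease of AREG, EREG and HBEGF, and ADAM10, that of BTC, were both in this list. The largest difference was 0.28 for FRMD8, a partner of the protease complex, in SN cells (adjusted p = 0.306).

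Of the adaptors that couple the receptors to RAS and PI3K, 12 of 13 were tested in Colony against parental cells and none was called (median 0.08). GAB2, a docking protein, was -0.77 from parental with adjusted p = 0.0297 but a fold change under 2, and SOS1, a RAS exchange factor, was -0.55 (adjusted p = 0.336). GAB1, another docking protein, was detected on 1 of the 9 arrays, and no difference is given for it. Among the negative regulators of the receptors 11 of 12 were tested and none was called, with a median of -0.01 in Colony and 0.02 in SN against parental cells. LRIG2 was -0.66 in Colony (adjusted p = 0.0236) and -0.83 in SN cells (adjusted p = 0.0371), both under the fold threshold, and LRIG1, which promotes the degradation of the receptors, was -0.70 (adjusted p = 0.0662) and -0.63 (adjusted p = 0.147).

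In the list of ERK output and feedback genes 1 of 12 was called in Colony cells and the same gene in SN cells, FOSL1, which encodes the AP-1 subunit FRA-1. It gave -1.55, -1.39 and -1.77 in parental A549, 0.38, 0.45 and 0.69 in OSK-A549-Colony and -0.39, -0.66 and -0.64 in OSK-A549-SN. The groups were separate, in the same order as for EREG and BTC. FOSL1 rose with log2 fold changes of 2.07 in Colony (SE 0.15, adjusted p = 0.0141) and 1.00 in SN cells (SE 0.16, adjusted p = 0.0448), the latter at a fold change of 2.01, just over the threshold. The SN call was lost with normexp (0.72), without the detection filter (adjusted p = 0.0693) and without any 1 of the 6 arrays. In the fits without 1 array the log2 fold change lay between 0.91 and 1.09. The Colony call was lost without parental replicate 2 or Colony replicate 2. With the replicate number as a block both calls were lost (adjusted p = 0.113 in Colony and 0.174 in SN cells). The median of the list was -0.06 in Colony and -0.08 in SN cells, and 6 of the 12 genes were below parental in Colony cells. ETV4, a transcription factor that ERK induces, was -0.99 from parental in Colony cells (adjusted p = 0.0333), just under the fold threshold.

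Of the immediate early genes, which also respond to the handling of cells, 10 of 12 were tested and 2 were called in Colony against parental cells, both higher. JUN, another AP-1 subunit, gave -0.53, -0.05 and -0.34 in parental, 1.32, 1.21 and 1.39 in Colony and 0.28, -0.13 and -0.25 in SN cells. Only the Colony arrays stood apart, and JUN rose by 1.61 on the log2 scale in Colony cells (SE 0.15, adjusted p = 0.0156). EGR1 gave -2.59, -2.06 and -2.28 in parental, -0.79, -1.25 and -1.25 in Colony and -1.98, -2.03 and -2.18 in SN cells. It rose by 1.21 (SE 0.20, adjusted p = 0.0302), but was not called with the normexp background correction (0.66) or without the detection filter (adjusted p = 0.0556), and not without parental replicate 2 or any 1 Colony array. JUN was not called without parental replicate 2 or any 1 Colony array either. With the replicate number as a block neither EGR1 (adjusted p = 0.128) nor JUN (adjusted p = 0.113) was called. NR4A1, a nuclear receptor, was near background, detected on 2 of 3 parental and 1 of 3 Colony arrays with at most 22.6 units, and its measured difference of -1.85 did not pass (adjusted p = 0.0728). The median of the list was 0.13. The culture method of the paper used trypsin on dishes that held both transduced groups. SN cells were collected with the supernatant, and Colony cells were then washed, picked and pipetted. A part of this handling in the immediate early genes was not tested.

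**Figure D5:**
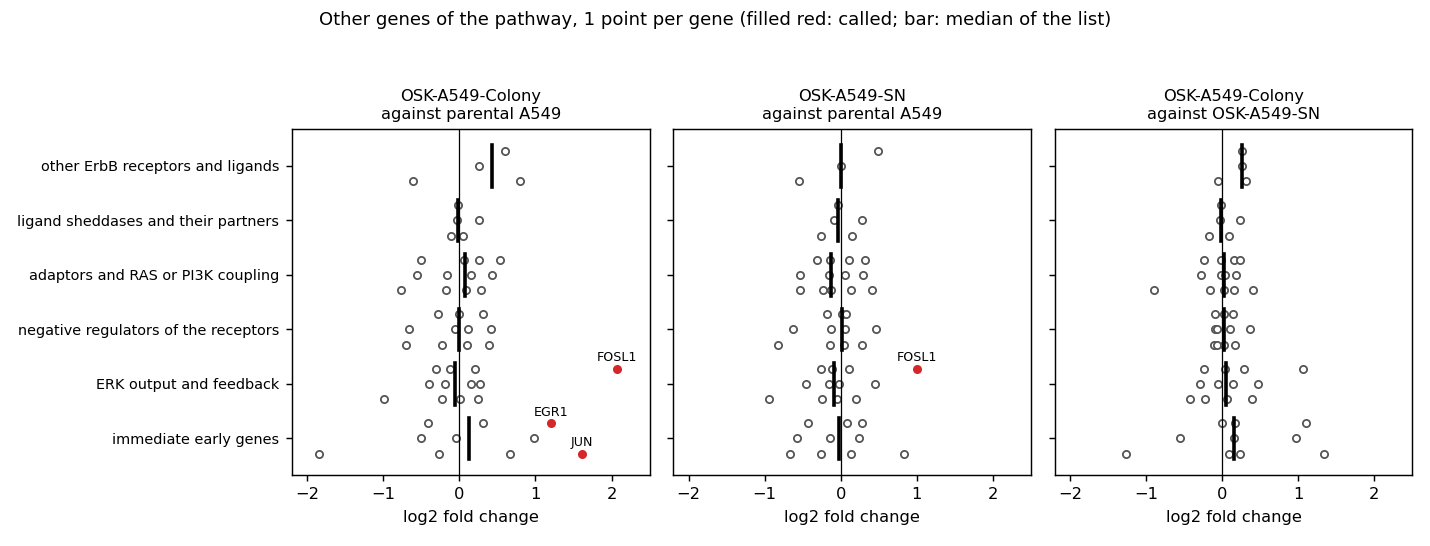
Log2 fold changes (horizontal axes) of the other genes of the pathway, 1 point per gene, in 6 lists (rows) and the 3 comparisons (panels). Vertical bars are the median of each list and filled red points were called. The medians lie between -0.12 and 0.26 except for 0.43 in the first list (4 tested genes) in Colony against parental cells, and the called genes are FOSL1, JUN and EGR1.

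All 6 epithelial markers (EPCAM, KRT7, KRT8, KRT18, KRT19 and CDH1) were detected on every array. Their summed intensity ranged from 389843 to 406218 in parental, 366492 to 381858 in Colony and 396907 to 407546 in SN cells. Most of this sum came from KRT18 (200073 to 246939 units) and KRT7 (118869 to 143488 units), so it does not follow EPCAM or CDH1. By flow cytometry, a measure of protein, the paper reports a part of the SN cells as E-cadherin-negative. Of the 6 markers, CDH1, which encodes E-cadherin, fell in Colony cells, by 1.06 on the log2 scale (SE 0.17, adjusted p = 0.0283). It gave 2.73, 2.75 and 3.24 in parental, 1.86, 1.91 and 1.76 in Colony and 1.86, 2.14 and 2.09 in SN cells, and in SN cells its difference of -0.88 did not pass (adjusted p = 0.0761). The CDH1 call was lost where the fold change fell under 2, with the deposited table and without parental replicate 3 (-0.90). It was also lost where the adjusted p was above 0.05, without the detection filter (0.0539), without parental replicate 2 and without any 1 Colony array. With the replicate number as a block it was lost too (adjusted p = 0.122). KRT19, a keratin, was 1.11 from parental in Colony cells (adjusted p = 0.0682), and was called with normexp (adjusted p = 0.0237), the stricter detection filter (0.0285) and all 9 arrays in 1 fit (0.0298).

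Of 6 fibroblast and mesenchymal stem cell markers, 5 were never well above background and COL1A1 was so on 3 arrays, and the summed intensity of the list was at most 43.8 units on any array. Of 6 endothelial markers, PECAM1, TEK and TIE1 were not detected at all, CDH5 and VWF were detected on all 9 arrays and KDR on 1, and the sum was 53.4 to 70.9 units in parental, 57.5 to 60.1 in Colony and 59.3 to 124.6 in SN cells. None of the tested endothelial markers was called, and the 3 tested in SN against parental cells had a median of 0.53. The highest value, 1.14, was that of KDR (adjusted p = 0.411), which was called without SN replicate 3 (1.98, adjusted p = 0.0319). KDR was well above background on 1 SN array and no parental array, so neither value measures a fold change. Among 4 leukocyte markers, CD14, CD68 and the defining gene PTPRC were detected on all 9 arrays, and the sums ranged from 904 to 1957 units in parental, 1064 to 1143 in Colony and 1280 to 1442 in SN cells. None of the 4 was called, and against parental cells their log2 fold changes had a median of -0.72 in Colony and -0.13 in SN cells, with 3 of the 4 below 0 in both. CD68, the exception, was 0.97 from parental in Colony cells (adjusted p = 0.0292) and 0.99 in SN cells (adjusted p = 0.0564), both under the fold threshold, and in Colony cells it was called with quantile normalization (1.02), the deposited table (1.04) and without parental replicate 3 (1.11). The T cell gene CD3E was detected on 2 of the 9 arrays, neither of them a Colony array. All RNAs came from cultures of A549 cells or their transduced derivatives, and the source of the leukocyte marker signal was not tested.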

How the data were processed

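RNAs of the parental, SN and Colony cells were hybridised to single-colour Agilent human arrays, 3 arrays per group, with groups taken from the sample titles. The authors deposited, per spot, the background-subtracted intensity written by Agilent Feature Extraction 11.5.1.1, and a table of log2 values, which, on every array and for 100% of its probes, was offset by 1 constant (within 0.01) to the values used here. The study's own comparisons were made in GeneSpring GX. Agilent's array annotation was built on hg19.

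The deposited intensity was put on the log2 scale. The 4259 control spots and the spots with an outlier flag (463 to 717 of 62976 per array) were left out, each array was shifted by its 75th percentile over the remaining spots, and replicate spots were averaged. No spot was saturated, and 25809 to 29317 probes were detected per array. The number of arrays limits the precision. Probes were named by their unversioned RefSeq accession (30275 of 32065 probes). Each comparison was fitted in R 4.3.3 by lmFit and eBayes of limma 3.58.1 on its 6 arrays over probes detected on at least 1 of them, with Benjamini-Hochberg adjustment, and the F test on all 9. Calls required a fold change over 2 with adjusted p below 0.05. Intervals are 95%. Differences between probes within arrays were compared by exact permutation tests in scipy 1.17.1. Some probes were detected on no array of 1 group and all arrays of the other. To bound their fold, a dim log2 value was raised to the lowest log2 value of a detected probe on its array, where higher. The third ERBB3 probe had no value raised in Colony cells, so its fold is the fitted one and not a lower bound. The fits were tested on simulated data.

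The members, lists and tests were chosen with earlier results of these data known. Every member probe is named, and of each list all called genes and otherwise, from those with the largest differences, the ones given. Alternatives were normexp background correction (offset 50, on median spot and background signals), quantile normalization, no or a stricter detection filter, all 9 arrays in 1 fit, the replicate number as a block, the deposited table and leaving out each array. The numbers were not taken as pairs: same-numbered arrays correlated in their deviations from the group means at -0.05 to -0.01 in Colony and parental cells, -0.20 to 0.15 in SN and parental cells and 0.07 to 0.24 in Colony and SN cells.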

Additional observations from a re-analysis of the deposited data

How the results depend on the processing

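The directions of the 5 called member values held under every alternative. With the normexp background correction the member probes called in OSK-A549-Colony against parental A549 were 2 in place of 4, and with the replicate number as a block 0. The replicate block also gave 0 in place of 1 in OSK-A549-SN against parental A549, and its adjusted p for the full-length ERBB3 probe was 0.113 in Colony and 0.167 in SN cells. The numbers were not taken as pairs in the main fits. Colony and SN arrays of 1 number had the same passage number. Every Colony array also correlated best with the SN array of its own number. Whether such arrays came from 1 transduction experiment is not given by the labels, and the low correlations do not decide it. Leaving out 1 array gave 0 to 4 member calls in Colony, 0 to 1 in SN and 0 in Colony against SN cells, and 3 to 7 members passing the F test. The cause of these shifts was not tested.

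Over all probes, 1245 were called in Colony against parental cells, 346 with normexp, 648 without the detection filter, 0 with the replicate block (FOSL1, JUN, EGR1 and CDH1 lost their calls there) and 0 to 1516 without 1 array. In SN against parental cells 542 were called, 241 with normexp, 231 without the filter, 987 with the stricter filter, 1093 with all 9 arrays in 1 fit, 0 with the replicate block and 0 to 190 without 1 array. In Colony against SN cells, 0 were called, 31 with normexp (JUN and KRT19 among them), 130 with the stricter filter (JUN and FOSL1 among them) and 8 with all 9 arrays. In Colony against parental cells NR4A1 was called with all 9 arrays in 1 fit (adjusted p = 0.0484) and ETV4 without parental replicate 1 (-1.15). The share of higher probes among the calls of Colony against parental cells was 37.3%, and 55.8% with quantile normalization, which moved the median log2 fold change of all tested probes from -0.10 to 0.01.

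Some differences changed sign, none of which was called. With normexp these were, in SN against parental cells, NRG1 A_23_P315815 (-0.031) and, in Colony against SN cells, EGFR A_33_P3351955 (-0.0069) and COL1A1 (-0.0046). When 1 array was left out, the log2 fold change in Colony against parental cells ran from -0.069 to 0.085 for ERRFI1 and from -0.065 to 0.96 for COL1A1. In SN against parental cells it ran from -0.091 to 0.26 for HBEGF, -0.061 to 0.18 for NRG1 A_23_P315815, -0.026 to 0.27 for NRG1 A_33_P3284345, -0.99 to 0.35 for CD3E and -0.34 to 0.69 for COL1A1. In Colony against SN cells it ran from -0.075 to 0.043 for EGFR A_23_P215790, -0.031 to 0.15 for EGFR A_33_P3351955, -0.31 to 0.037 for TGFA, -0.19 to 0.74 for EPCAM and -0.022 to 0.48 for NRG4. COL1A1 and CD3E were detected on 3 and 2 of the 9 arrays.

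The slide as a block was not run, because the second slide held 1 array, OSK-A549-SN replicate 3, so that the block equals leaving that array out. BTC, HBEGF and the third ERBB3 probe were close to background, where the background correction limits what a fold change can show.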
